A study of Mus musculus with 6 samples.

Results

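The respiratory chain passes electrons from NADH and succinate to oxygen through complexes I to IV of the inner mitochondrial membrane, with cytochrome c as the carrier between complexes III and IV. Protons pumped along the way return through complex V, the ATP synthase. Complex II is wholly encoded in the nucleus, while complexes I, III, IV and V join nuclear subunits to a few subunits encoded in mitochondrial DNA. Tubular cells of the kidney depend heavily on this pathway, and activated fibroblasts are known to adjust their metabolism.

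The genes described here are 105 of the 22274 in the deposited table. They were chosen by name: 92 nuclear genes whose symbol begins with Nduf (assembly factors left out), Uqcr, Cox4 to Cox8 or Atp5, or is Sdha, Sdhb, Sdhc, Sdhd, Cyc1 or Cycs, and 13 mitochondrially encoded protein genes. The deposited table spells only mt-Co3 in the current way (Mtco1 stands for mt-Co1, for example), so the 13 were matched by identifier to the GENCODE M21 annotation. Among the 92 nuclear rows, 5 are other protein-coding loci that carry the symbol of a subunit, and they are named as copies. Ndufa4 and Ndufa4l2 are counted with complex IV, of which NDUFA4 is a subunit.

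There were 2 groups of 3 libraries, from mouse kidney cells labelled primary renal fibroblasts. Each culture was exposed for 48 h to 5 ng/ml of TGF-β, a cytokine that activates fibroblasts. In the first group the cells were depleted of Prune2 by siRNA, and in the second they were labelled WT and had received a scrambled siRNA, called control siRNA below. No strain, sex, age or number of animals is given. The labels leave unsaid whether replicates were separate isolations, so each p-value is relative to a spread that may be technical. The comparison asked which respiratory chain transcripts differ when Prune2 is depleted in TGF-β-treated cells.

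Prune2 itself was at 3.80 ± 0.629 CPM (counts scaled to library size, SD, n = 3) with Prune2 siRNA and 6.95 ± 0.775 CPM with control siRNA, a log2 fold change of -0.87 (SE 0.15, adjusted p = 0.000214 by edgeR's quasi-likelihood test). Limma on the deposited FPKM values, as log2(FPKM + 1), did not call Prune2 (-0.24, adjusted p = 0.191). Those values were low, at 0.847 FPKM with Prune2 siRNA and 1.18 FPKM with control siRNA, so the added 1 by itself made the fold change smaller. Library totals ran from 20075265 to 23234797 counts. Some markers of tubular epithelium and of fibroblasts were high and others were near 0. Krt8, a simple keratin of epithelia, was at 1131 ± 73.4 FPKM (the deposited value scaled to gene length and library size, SD, n = 3) with Prune2 siRNA and 1232 ± 24.9 FPKM with control siRNA. Epcam, an epithelial adhesion protein, was at 248 ± 10.4 FPKM with Prune2 siRNA and 244 ± 3.38 FPKM with control siRNA, while the tubular transport genes Slc34a1 and Aqp2 were listed at 0 in every library. Of the fibroblast list, Vim was at 182 ± 11.6 FPKM with Prune2 siRNA and 260 ± 13.9 FPKM with control siRNA. Col1a1, a fibroblast collagen, was at 34.4 ± 2.14 FPKM with Prune2 siRNA and 39.7 ± 0.605 FPKM with control siRNA. Dcn and Lum, which mark many fibroblasts, were near 0, at 0.27 and 0.02 FPKM with Prune2 siRNA and 0.16 and 0.017 FPKM with control siRNA. All 16 leukocyte markers fell, and their summed level ran from 42.4 to 46.4 CPM in the Prune2 siRNA libraries and from 195 to 244 CPM in the control siRNA libraries. In bulk RNA, fewer cells of a type and less RNA per cell cannot be told apart. Of the 8 endothelial markers 6 fell, with sums of 92.1 to 94.3 CPM in the Prune2 siRNA libraries and 123 to 134 CPM in the control siRNA libraries. Of 8 tested fibroblast markers 3 fell (Vim by a log2 fold change of -0.53), with sums of 693 to 737 CPM in the Prune2 siRNA libraries and 915 to 954 CPM in the control siRNA libraries. Of 9 tested tubular markers Slc12a3 and Cdh16 rose and Lrp2 and Krt8 fell, with sums of 5020 to 5468 CPM in the Prune2 siRNA libraries and 5473 to 5622 CPM in the control siRNA libraries. The part of these shifts in the values below was not tested.

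No nuclear gene of the chain passed the test in either direction, while 2 of the 13 mitochondrial genes did, both higher with Prune2 siRNA. They were mt-Atp8, a membrane subunit of the ATP synthase, and mt-Nd4l, a membrane subunit of complex I, which are also the 2 shortest mitochondrial protein genes. Called genes are those with an adjusted p under 0.05 in the edgeR test, adjusted by Benjamini-Hochberg over all 13248 genes that passed the filter on low counts. By that rule 10.3% of all tested genes were called, 4.46% higher and 5.83% lower. For most members a large difference was excluded. The 95% confidence interval of the difference lay within 1.25-fold in either direction for 71 of the 82 tested nuclear members and 11 of the 13 mitochondrial ones, against 63.7% of all tested genes. Such a count depends on the size of a difference as well as on its precision. The median SE was 0.062 for nuclear members and 0.043 for mitochondrial ones, against 0.070 for all tested genes. It lay within 1.5-fold for 77 and 12 of them, against 80.6% of all tested genes.

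The sequences of the 2 called genes are shown because both end inside the next gene. Each gene shares an mRNA with its longer neighbour, mt-Atp8 with mt-Atp6 and mt-Nd4l with mt-Nd4, and reads from the shared bases can belong to either gene. How the authors counted such reads, or reads that also match copies of mitochondrial DNA in the nuclear genome, is not stated in the sources used here. The mt-Atp8 gene spans chrM:7766-7969 on the plus strand of GRCm38 and is 204 bases long. Its last 43 bases, in capitals, are also the first bases of mt-Atp6. The mt-Nd4l gene spans chrM:9877-10173 on the same strand and is 297 bases long. Its last 7 bases, in capitals, are the first of mt-Nd4. Both sequences are coding and come from the GENCODE M21 transcripts.
mt-Atp8: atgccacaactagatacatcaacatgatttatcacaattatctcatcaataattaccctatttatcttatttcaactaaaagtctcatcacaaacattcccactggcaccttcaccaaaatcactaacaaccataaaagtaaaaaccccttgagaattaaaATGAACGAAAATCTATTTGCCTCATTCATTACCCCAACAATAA
mt-Nd4l: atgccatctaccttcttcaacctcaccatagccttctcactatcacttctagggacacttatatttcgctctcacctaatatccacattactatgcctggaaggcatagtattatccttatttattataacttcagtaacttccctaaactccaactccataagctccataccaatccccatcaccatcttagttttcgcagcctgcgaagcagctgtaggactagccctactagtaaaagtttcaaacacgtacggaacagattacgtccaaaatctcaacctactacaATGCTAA

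The level of mt-Atp8 was 91.2, 113 and 112 CPM in Prune2 siRNA replicates 1, 2 and 3, and 79.0, 53.7 and 89.1 CPM in control siRNA replicates 1, 2 and 3. The groups did not overlap, and control siRNA replicate 2 was the lowest of the 6 libraries. The log2 fold change was 0.51 (SE 0.10, 95% CI 0.30 to 0.72, adjusted p = 0.00103 by edgeR), a 1.42-fold higher level with Prune2 siRNA. Without control siRNA replicate 2 it was 0.32 (adjusted p = 0.00449 by edgeR). DESeq2 gave the same size and an adjusted p of 0.217, the highest of the 16 alternatives tried, over which adjusted p ran down to 8.55e-26 with no filter on low counts. The call held in 13 of the 16.

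The level of mt-Nd4l was 214, 254 and 225 CPM in Prune2 siRNA replicates 1, 2 and 3, and 212, 167 and 220 CPM in control siRNA replicates 1, 2 and 3. These groups overlapped, since control siRNA replicate 3 lay above Prune2 siRNA replicate 1, and control siRNA replicate 2 was again the lowest library. The log2 fold change was 0.21 (SE 0.07, adjusted p = 0.0497 by edgeR). It was 0.09 without control siRNA replicate 2 (adjusted p = 0.431 by edgeR), and the call held in 6 of 16 alternatives, with adjusted p of 3.18e-06 to 0.616.

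The partner genes on the same mRNAs did not pass the test. Levels of mt-Atp6, the subunit through which protons enter the ATP synthase rotor, were 3018, 3144 and 2895 CPM with Prune2 siRNA, against 3273, 2960 and 2900 CPM with control siRNA, a log2 fold change of -0.01. For mt-Nd4, a proton-pumping subunit of complex I, they were 4444, 4805 and 4469 CPM with Prune2 siRNA, against 4606, 4152 and 4208 CPM with control siRNA, a log2 fold change of 0.08 (adjusted p = 0.286 by edgeR). On the deposited FPKM scale, which is per length, the ratio of mt-Atp8 to mt-Atp6 was 0.101, 0.120 and 0.129 in the Prune2 siRNA libraries and 0.081, 0.061 and 0.103 in the control siRNA libraries. The ratio of mt-Nd4l to mt-Nd4 was 0.223, 0.245 and 0.234 in the Prune2 siRNA libraries and 0.214, 0.187 and 0.243 in the control siRNA libraries. Both sets of ratios overlapped between the groups.

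**Figure D1:**
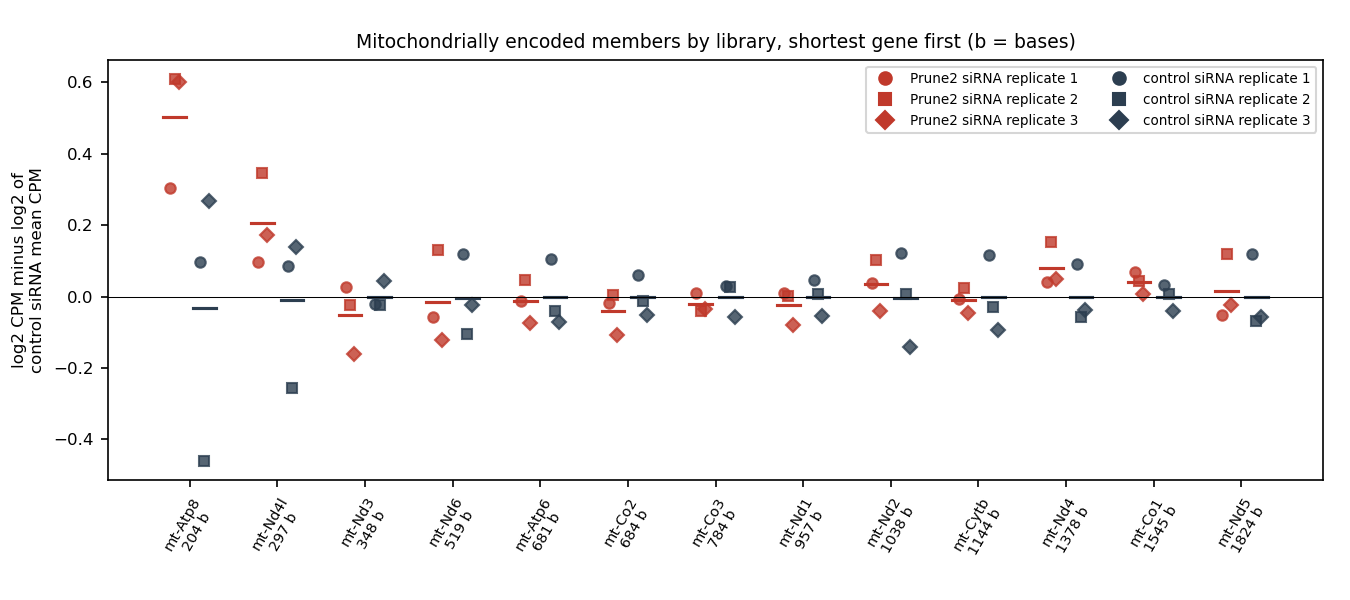
Level of each mitochondrially encoded member in each library as log2 CPM minus the log2 of the control siRNA mean (vertical axis, log2), with Prune2 siRNA in red to the left of control siRNA in dark blue and genes ordered by length in bases. Bars are group means. The called genes mt-Atp8 and mt-Nd4l are the 2 shortest, and control siRNA replicate 2 (square) is their lowest library, while mt-Nd3, at 348 bases, had a log2 fold change of -0.05.

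The other 5 mitochondrial subunits of complex I were at closely similar levels in the 2 groups. Those of mt-Nd1 were 3712, 3692 and 3494 CPM with Prune2 siRNA and 3806, 3708 and 3554 CPM with control siRNA. For mt-Nd2 they were 2307, 2412 and 2186 CPM with Prune2 siRNA and 2444, 2256 and 2038 CPM with control siRNA. For mt-Nd3, the third shortest gene, they were 209, 202 and 184 CPM with Prune2 siRNA and 202, 202 and 212 CPM with control siRNA. All of these groups overlapped, and the log2 fold changes of mt-Nd1, mt-Nd2 and mt-Nd3 were -0.02, 0.04 and -0.05. For mt-Nd5 the levels were 4016, 4522 and 4091 CPM with Prune2 siRNA, against 4518, 3968 and 3998 CPM with control siRNA. The levels of mt-Nd6, the only protein gene transcribed from the other strand, were 721, 820 and 689 CPM with Prune2 siRNA, against 815, 697 and 738 CPM with control siRNA. The log2 fold changes were 0.02 for mt-Nd5 and -0.01 for mt-Nd6, with groups again overlapping, and the ends of these 2 genes overlap by 14 bases on opposite strands.

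Cytochrome b, the haem-bearing core of complex III, was measured through mt-Cytb at 5048, 5148 and 4904 CPM with Prune2 siRNA and 5490, 4966 and 4748 CPM with control siRNA, a log2 fold change of -0.01. The catalytic subunit of complex IV, mt-Co1, was the most abundant member at 20496, 20111 and 19626 CPM with Prune2 siRNA and 19985, 19619 and 18982 CPM with control siRNA. Its log2 fold change was 0.04 (SE 0.04). The copper-binding mt-Co2 was at 4333, 4399 and 4069 CPM with Prune2 siRNA, against 4573, 4351 and 4235 CPM with control siRNA (log2 fold change -0.04). For mt-Co3, the remaining core subunit, levels were 4276, 4129 and 4143 CPM with Prune2 siRNA and 4332, 4327 and 4082 CPM with control siRNA (log2 fold change -0.02). None of these 4 genes passed the test, and all had overlapping groups.

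Taken over all 13 genes, the median log2 fold change was -0.01, against 0.0042 over all tested genes. The genes took 5.30%, 5.36% and 5.15% of all counts in the Prune2 siRNA libraries and 5.40%, 5.12% and 5.00% in the control siRNA libraries. Among the control siRNA libraries replicate 1 was high and replicate 3 low, and the range of the Prune2 siRNA group lay inside theirs.

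The nuclear genes were compared next. Of the 92 rows 82 passed the filter, and with edgeR 0 were higher and 0 lower. At an unadjusted p under 0.05 there were 7 (6 higher and 1 lower), or 8.54%, against 20.0% of all tested genes (9.46% higher and 10.6% lower). DESeq2, limma-voom and limma on the deposited FPKM values also called 0 in either direction. The median log2 fold change was 0.03, equal to 2.31% higher with Prune2 siRNA, and 59 of the 82 values were positive (72.0%, against 51.7% of all tested genes). Single values ran from -0.21 for Cox6b2 to 0.42 for Ndufa3. In 9 members every Prune2 siRNA library was above every control siRNA library and in 1 every library was below, so that 10 of 82 (12.2%) did not overlap, against 24.3% of all tested genes (11.9% above and 12.4% below). Summed over the nuclear members, levels were 4848, 4612 and 4679 CPM with Prune2 siRNA and 4632, 4639 and 4595 CPM with control siRNA. Prune2 siRNA replicate 1 was the highest library and the groups overlapped. Of the 105 members 0 had an adjusted p under 0.05 in the authors' deposited table, against 4.64% of all 22274 genes, and the smallest was 0.154, for Cox6b1.

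**Figure D2:**
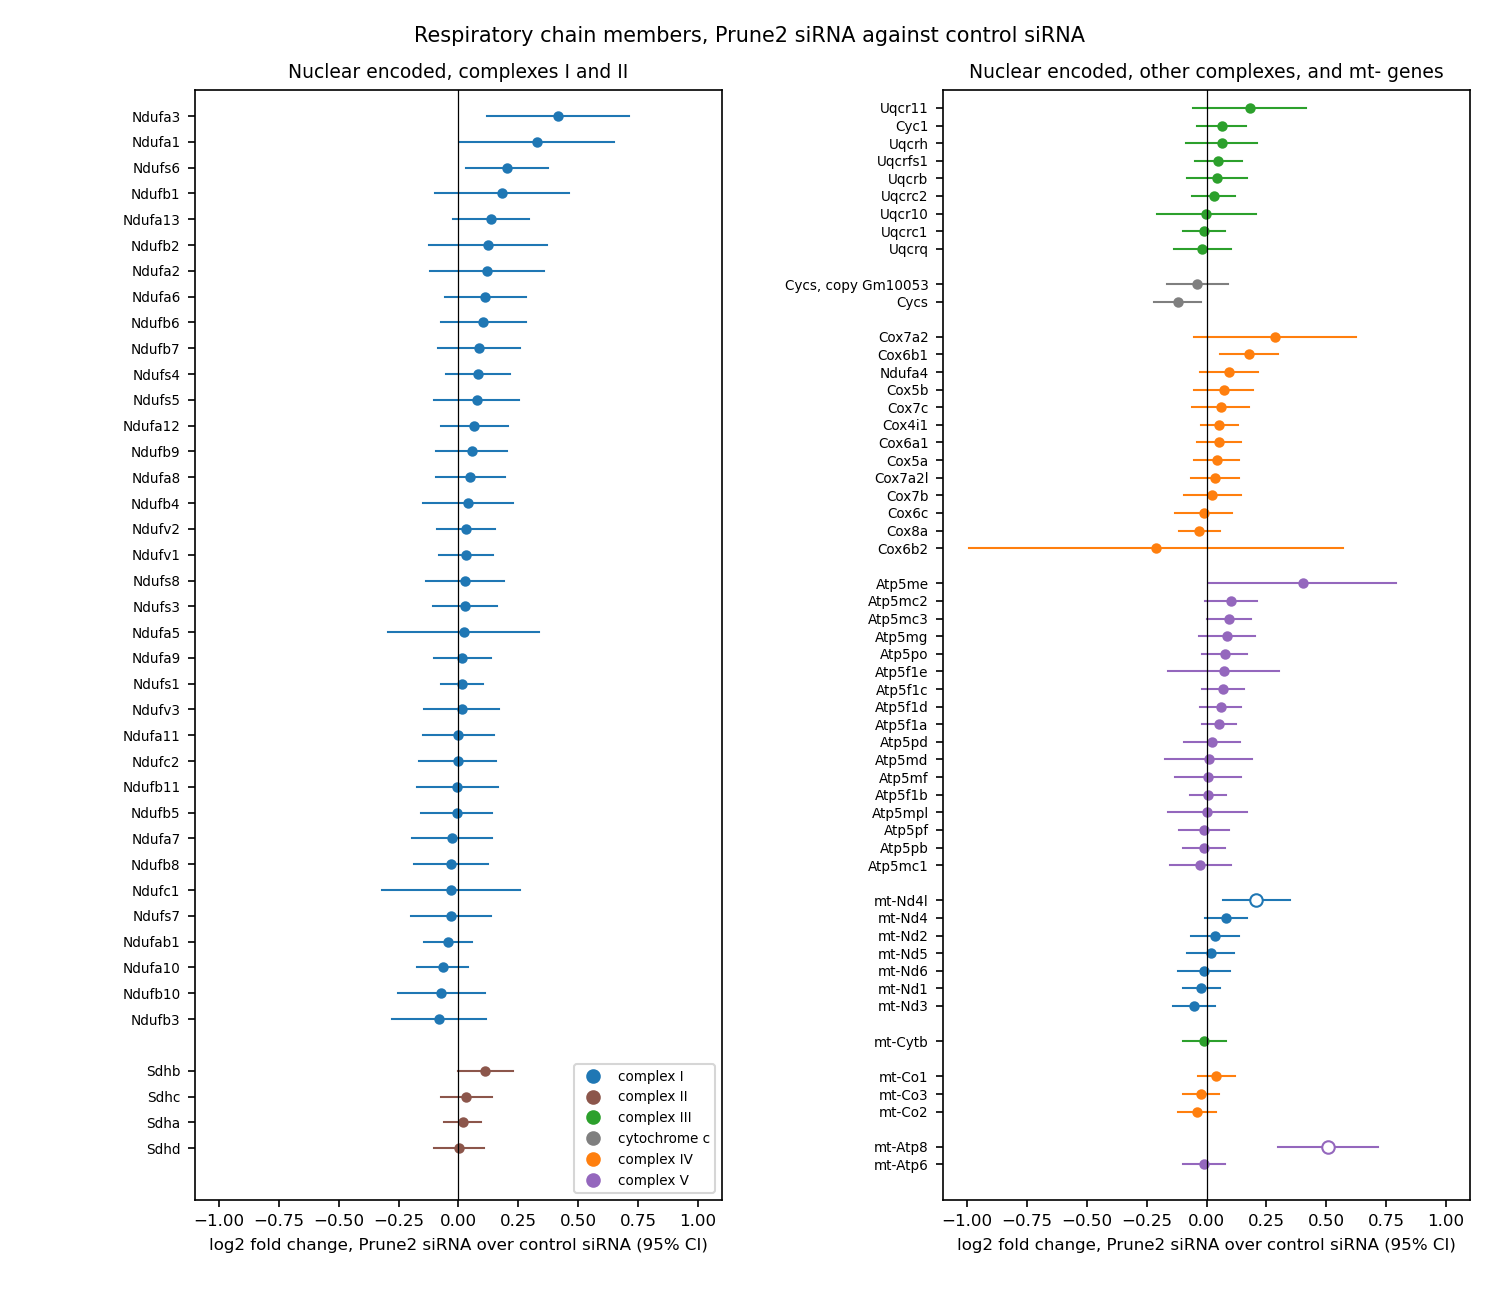
Log2 fold change of Prune2 siRNA over control siRNA (horizontal axis) with its 95% confidence interval (line) for 94 tested members, grouped by complex and by genome. Open circles mark the 2 members that passed the test, mt-Atp8 and mt-Nd4l, and the values of the nuclear members lie between -0.21 and 0.42.

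In complex I, 37 of the 39 nuclear rows were tested, with a median log2 fold change of 0.03. For core subunits, 6 genes are given: Ndufs1, Ndufs3, Ndufs7, Ndufs8, Ndufv1 and Ndufv2 belong to the arm that carries the flavin and the iron-sulphur clusters. Their log2 fold changes lay between -0.03 and 0.03. The 30 accessory subunits ranged more widely, from -0.08 for Ndufb3 to 0.42 for Ndufa3. They include the row deposited as Ndufb1 (log2 fold change 0.18), which GENCODE M21 names Ndufb1-ps and lists as a non-coding RNA. Ndufa3 was at 6.94, 7.59 and 7.99 CPM with Prune2 siRNA, against 6.79, 4.30 and 5.78 CPM with control siRNA. Its groups did not overlap, control siRNA replicate 2 was the lowest library, and the adjusted p was 0.0689 by edgeR. Ndufb3 was at 13.4, 13.4 and 14.7 CPM with Prune2 siRNA and 16.0, 12.3 and 15.4 CPM with control siRNA, with overlapping groups. Ndufs6, Ndufa1 and Ndufa13 were the other complex I genes with every Prune2 siRNA library on top, at log2 fold changes of 0.20, 0.33 and 0.14 and adjusted p of 0.147, 0.238 and 0.349 by edgeR. Ndufab1, the mitochondrial acyl carrier protein, was below in every Prune2 siRNA library by a small margin, at a log2 fold change of -0.04 (adjusted p = 0.700 by edgeR).

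Complex II, succinate dehydrogenase, also works in the citric acid cycle. Its highest value was for Sdhb, the iron-sulphur subunit, at 37.8, 38.7 and 40.3 CPM with Prune2 siRNA and 36.0, 37.0 and 35.2 CPM with control siRNA. The groups did not overlap, and the log2 fold change was 0.11 (SE 0.06, adjusted p = 0.264 by edgeR). Its lowest was for Sdhd, a membrane anchor, at 55.3, 52.8 and 56.1 CPM with Prune2 siRNA and 53.4, 56.8 and 53.7 CPM with control siRNA, at 0.0028. Sdha, the flavoprotein, and Sdhc, the other anchor, had log2 fold changes of 0.02 and 0.03.

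In complex III the genes of the core and redox subunits Uqcrc1, Uqcrc2, Uqcrfs1 (the Rieske protein) and Cyc1 (cytochrome c1) had log2 fold changes of -0.01 to 0.06. The 5 small subunits ran from -0.02 for Uqcrq to 0.18 for Uqcr11. Uqcr11 was at 9.20, 7.90 and 8.76 CPM with Prune2 siRNA, against 8.11, 6.95 and 7.73 CPM with control siRNA. Uqcrq was at 48.0, 44.3 and 46.5 CPM with Prune2 siRNA and 50.5, 43.8 and 46.3 CPM with control siRNA. Both genes had overlapping groups, and the smallest adjusted p in the complex was 0.433 by edgeR.

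Cytochrome c, the mobile electron carrier, was the only nuclear group with a negative median log2 fold change. Cycs, the somatic form, was at 88.7, 82.2 and 90.9 CPM with Prune2 siRNA, against 101, 94.4 and 89.8 CPM with control siRNA. Prune2 siRNA replicate 3 lay above control siRNA replicate 3, so the groups overlapped. The log2 fold change was -0.12 (SE 0.05, 95% CI -0.22 to -0.02), and the adjusted p was 0.131 by edgeR. The copy Gm10053 on chromosome 19 was at 38.3, 38.7 and 34.0 CPM with Prune2 siRNA and 38.3, 35.7 and 39.8 CPM with control siRNA (log2 fold change -0.04). Reads of Cycs and its copy may be split between them, since the treatment of shared reads is not stated in the sources used here.

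Complex IV holds most of the subunits that exist in tissue-specific forms, and 13 of its 20 nuclear rows were tested. Of the tissue forms compared, the widely expressed ones and the testis form Cox6b2 passed the filter on low counts. Cox4i1 was at 120, 117 and 119 CPM with Prune2 siRNA and 115, 116 and 112 CPM with control siRNA, without overlap, at a log2 fold change of 0.05 (adjusted p = 0.495 by edgeR). Its counterpart Cox4i2, known from lung and hypoxic cells, had 0 counts in every library but control siRNA replicate 3, which had 4. Cox6a1 was at 94.6, 89.5 and 95.1 CPM with Prune2 siRNA and 93.8, 85.6 and 90.2 CPM with control siRNA, with overlapping groups. The heart and muscle form Cox6a2 had 1 count in all 6 libraries together.

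Cox8a was at 96.5, 94.3 and 96.6 CPM with Prune2 siRNA, against 95.4, 101 and 97.4 CPM with control siRNA, a log2 fold change of -0.03. The muscle form Cox8b and the testis form Cox8c had 0 counts in all 6 libraries, which allows levels of up to 0.129 to 0.149 CPM per library (3 counts, for counting error only). Cox7a2 was at 5.66, 4.93 and 5.47 CPM with Prune2 siRNA and 4.10, 3.45 and 5.52 CPM with control siRNA. These groups overlapped, and the log2 fold change of 0.29 had an SE of 0.16 (adjusted p = 0.359 by edgeR). The muscle form Cox7a1 had 2, 0 and 3 counts with Prune2 siRNA and 1, 3 and 3 counts with control siRNA.

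Cox6b1 was the nuclear member with the smallest adjusted p. It was at 53.7, 49.8 and 54.4 CPM with Prune2 siRNA, against 45.9, 43.1 and 50.4 CPM with control siRNA. Prune2 siRNA replicate 2 lay just below control siRNA replicate 3, and the log2 fold change was 0.18 (SE 0.06, adjusted p = 0.0513 by edgeR). The testis form Cox6b2 was low, at 0.472, 0.698 and 0.769 CPM with Prune2 siRNA and 0.440, 0.800 and 0.999 CPM with control siRNA, and its log2 fold change of -0.21 had an SE of 0.38. Ndufa4 was at 54.0, 53.8 and 52.8 CPM with Prune2 siRNA and 45.2, 50.3 and 54.8 CPM with control siRNA, a log2 fold change of 0.09 with overlapping groups. Ndufa4l2, which is induced by hypoxia in many cells, had 4, 1 and 7 counts with Prune2 siRNA and 1, 7 and 4 counts with control siRNA.

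In complex V, 17 of the 18 nuclear rows were tested, with a median log2 fold change of 0.05 and 14 positive values. The 5 subunits of the catalytic F1 head, Atp5f1a to Atp5f1e, lay between 0.01 and 0.07. Those of the peripheral stalk, Atp5pb, Atp5pd, Atp5pf and Atp5po, ran from -0.01 to 0.08. The rotor ring subunit is encoded by 3 genes with the same mature protein: Atp5mc1 was the lowest of complex V at -0.03, while Atp5mc2 and Atp5mc3 were at 0.10 and 0.09 with groups that did not overlap (adjusted p of 0.286 and 0.239 by edgeR). Atp5mc1 was at 34.8, 32.0 and 31.5 CPM with Prune2 siRNA and 35.4, 32.2 and 32.4 CPM with control siRNA. Atp5me, a small membrane subunit, was at 4.48, 4.28 and 5.00 CPM with Prune2 siRNA, against 3.42, 2.35 and 4.56 CPM with control siRNA. Its groups overlapped, control siRNA replicate 2 was again lowest, and the log2 fold change was 0.40 (SE 0.19, adjusted p = 0.233 by edgeR).

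The 10 untested nuclear rows were Cox4i2, Cox6a2, Cox7a1, Cox8b, Cox8c, Ndufa4l2 and the copies of Cox5b (Gm11273), Ndufb11 (1700029P11Rik), Ndufb8 (Gm20538) and Atp5mg (Gm5426). The last 3 copies had 0 counts throughout and the Cox5b copy had 1.

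Per length, most mitochondrial transcripts stood above the nuclear ones. On the FPKM scale the median level of the 13 mitochondrial genes was 3327 with Prune2 siRNA and 3125 with control siRNA, and that of the 82 tested nuclear genes was 35.6 with Prune2 siRNA and 35.0 with control siRNA. The mitochondrial genes ran from 361 FPKM for mt-Atp8 with control siRNA to 13032 FPKM for mt-Co1 with Prune2 siRNA. These are values per gene, and that of mt-Atp8 need not be the level of its mRNA. Its partner on that mRNA, mt-Atp6, was at 4445 FPKM with Prune2 siRNA and 4454 FPKM with control siRNA. The highest nuclear gene was Atp5f1b, the catalytic beta subunit of the ATP synthase. It was at 430 ± 15.4 FPKM with Prune2 siRNA and 425 ± 12.8 FPKM with control siRNA (SD, n = 3), above the gene value of mt-Atp8 in the control siRNA group. Among the nuclear complexes the median level with Prune2 siRNA was 28.0 FPKM for complex I and 74.6 FPKM for complex V, against 26.3 and 70.6 FPKM with control siRNA. The summed counts of mitochondrial over nuclear members gave a ratio of 11.2 ± 0.427 with Prune2 siRNA and 11.2 ± 0.443 with control siRNA (SD, n = 3), a difference smaller than the spread. The ratio within complex I was 16.1 ± 1.10 with Prune2 siRNA and 16.0 ± 0.705 with control siRNA, and within complex IV it was 39.0 ± 0.933 with Prune2 siRNA and 39.9 ± 1.75 with control siRNA.

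**Figure D3:**
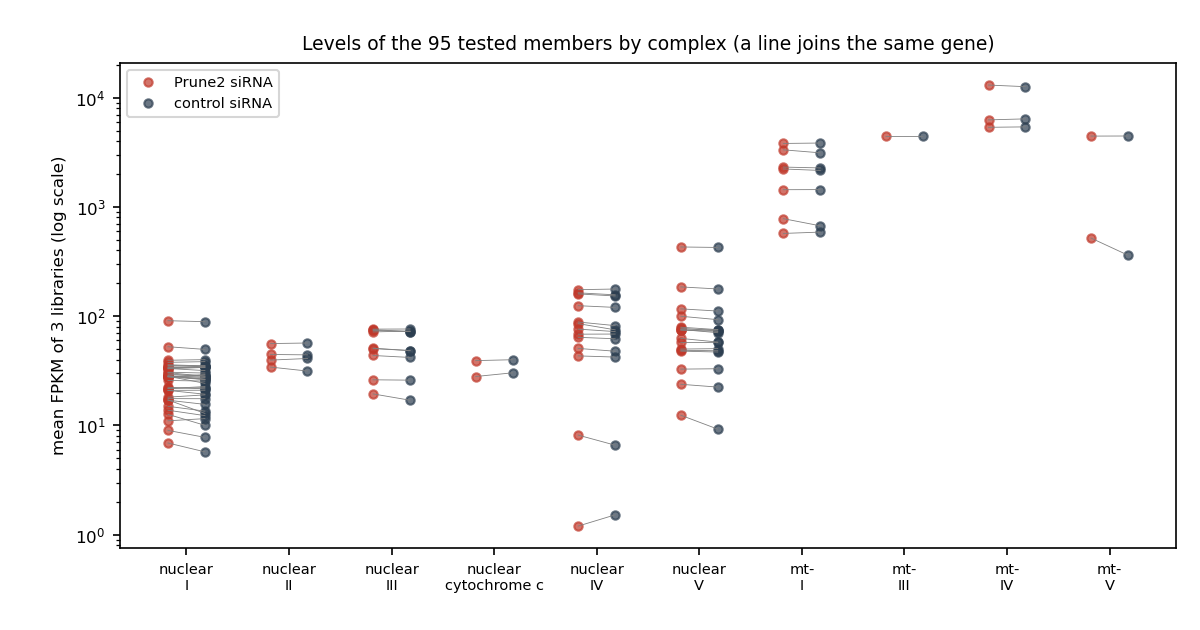
Mean FPKM of the 3 libraries of each group (vertical axis, log scale) for each tested member, with Prune2 siRNA in red to the left of control siRNA in dark blue, by complex and genome. Nuclear members lie between 1.20 and 430 FPKM with Prune2 siRNA, and mitochondrial members between 518 and 13032 FPKM. With control siRNA the ranges overlap, from 1.52 to 425 FPKM and from 361 to 12594 FPKM. The lowest mitochondrial value is that of mt-Atp8, whose partner on the same mRNA, mt-Atp6, was at 4454 FPKM with control siRNA.

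The median log2 fold change was larger in the bins of shorter transcripts. The 4 nuclear members with the largest positive values, Ndufa3, Atp5me, Ndufa1 and Cox7a2, had lengths of 371 to 659 bases (as implied by the deposited count and FPKM) and levels of 2.35 to 7.99 CPM. Medians of the tested nuclear members were 747 bases, 33.6 CPM with Prune2 siRNA and 34.0 CPM with control siRNA. These 4 genes thus had low levels as well as short lengths, and the part of each was not tested. Nuclear members under 600 bases had a median log2 fold change of 0.06 (n = 25), and tested genes under 600 bases that are not members had 0.06 (n = 96). In the bin of 600 to 1000 bases the medians were 0.04 for members (n = 33) and 0.04 for the others (n = 642), and at 2000 bases or more they were 0.02 for members (n = 5) and -0.0026 for the others (n = 9196). Relative to the mean of the control siRNA libraries, the median log2 value of the other genes under 600 bases was 0.10, 0.07 and 0.02 in the Prune2 siRNA libraries and 0.06, -0.04 and -0.01 in control siRNA replicates 1, 2 and 3. Control siRNA replicate 2 was the lowest, as it was for mt-Atp8 and mt-Nd4l. Across the 82 nuclear members Pearson's r between log2 length and log2 fold change was -0.33 and Spearman's rho -0.23, against -0.022 and -0.10 across all 13248 tested genes, descriptions over genes that share the same 6 libraries.

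A fitted trend with length was then used as an offset in the fit, an alternative chosen after seeing the data. With it mt-Atp8 had a log2 fold change of 0.31 (adjusted p = 0.0128 by edgeR) and mt-Nd4l 0.06 (adjusted p = 0.601 by edgeR). For both genes the length used was that of the gene, not of the mRNA shared with a neighbour. Under the same fit mt-Nd3 was lower with Prune2 siRNA, at -0.19 (adjusted p = 0.00224 by edgeR). At most 125 tested genes under 600 bases entered the trend, these mitochondrial genes among them. The offset thus rests on few genes at such lengths, and whether it corrects too much there was not tested. None of the nuclear members was called, and their median log2 fold change was 0.0073, against 0.03 without the offset.

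**Figure D4:**
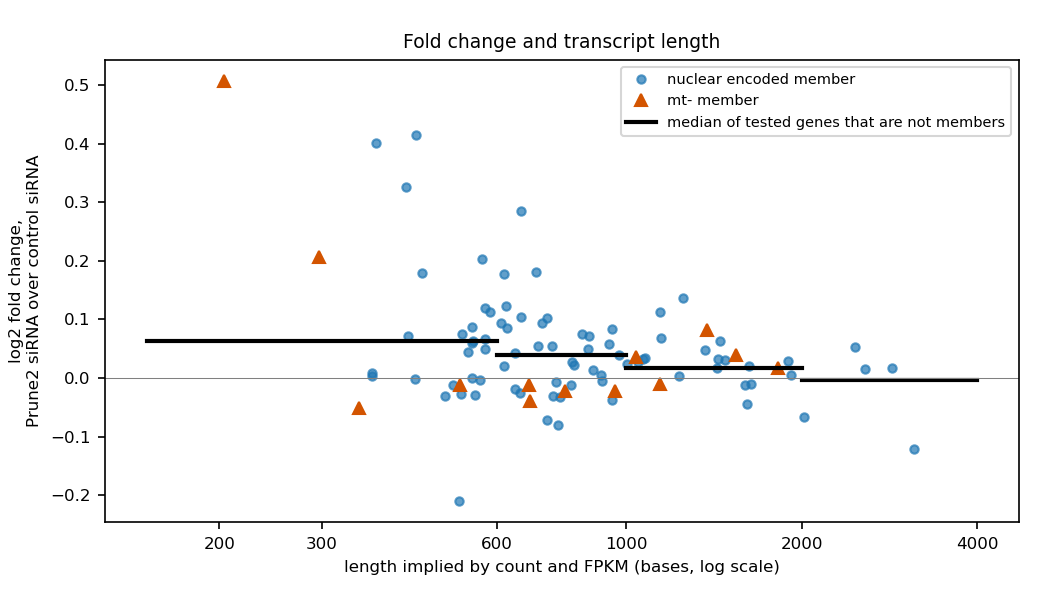
Log2 fold change of Prune2 siRNA over control siRNA (vertical axis) against length in bases implied by count and FPKM (horizontal axis, log scale). Nuclear members are blue circles and mitochondrial members orange triangles. For mt-Atp8 and mt-Nd4l this is the length of the gene, not of the mRNA shared with a neighbour. Black lines show the median of tested genes that are not members in 4 length bins, 0.06 under 600 bases and 0.04 from 600 to 1000 bases. The largest positive values of members are at short lengths, and the 4 largest of the nuclear members also had low levels, of 2.35 to 7.99 CPM.

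Promoters of nuclear respiratory genes often hold sites for NRF1, for the ETS factor GABP and for YY1, and the windows in RefSeq (GRCm38.p6, 250 bases before to 50 after the start) were searched for GCATGCG (NRF1), CGGAAGT (ETS) and ATGGCGG (YY1) on both strands. Of the 82 tested nuclear members 68 had a window matched by symbol. The NRF1 letters were in 12 of the 68 (17.6%), against 7.30% of the 10261 tested genes with a window and 3.58% of all 32851 windows. The ETS letters were in 11 (16.2%), against 14.4% of tested genes and 6.42% of all windows. The YY1 letters were in 10 (14.7%), against 9.21% of tested genes and 4.05% of all windows. The median log2 fold change was 0.07 for members with the NRF1 letters and 0.03 for those without. It was 0.03 with and 0.04 without the ETS letters, and 0.01 with and 0.04 without the YY1 letters.

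The windows of Cycs and Cox6b1 are shown because these members had the lowest adjusted p among nuclear members with negative and with positive values, with the matched letters in capitals. The Cycs window (chr6:50566520-50566819, minus strand) holds the NRF1 letters on both strands, overlapping by 6 bases, 61 bases before the start. The Cox6b1 window (chr7:30626065-30626364, minus strand) holds the ETS letters 120 bases before the start. The window of Ndufa3, the nuclear member with the largest log2 fold change, holds none of the letters searched for and is not shown.
Cycs: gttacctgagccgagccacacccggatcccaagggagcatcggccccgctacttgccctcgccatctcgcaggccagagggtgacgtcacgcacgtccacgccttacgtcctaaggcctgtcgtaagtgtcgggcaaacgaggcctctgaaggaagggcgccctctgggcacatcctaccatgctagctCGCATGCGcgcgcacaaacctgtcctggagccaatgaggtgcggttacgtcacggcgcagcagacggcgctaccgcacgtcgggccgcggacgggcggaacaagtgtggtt
Cox6b1: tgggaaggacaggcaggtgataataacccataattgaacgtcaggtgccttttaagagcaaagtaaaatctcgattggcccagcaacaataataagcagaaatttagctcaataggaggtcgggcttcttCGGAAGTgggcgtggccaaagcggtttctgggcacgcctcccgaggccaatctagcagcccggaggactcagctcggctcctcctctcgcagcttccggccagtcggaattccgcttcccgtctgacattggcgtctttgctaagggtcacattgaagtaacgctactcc

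Genes that build and express the chain were compared in the same way. Of 48 tested assembly factors edgeR called 0 in either direction (10.3% of all tested genes were called), and 3 (6.25%) had an unadjusted p under 0.05, against 20.0% of all tested genes. The median log2 fold change was 0.05. These genes were measured less closely than the members, with a median SE of 0.10 against 0.062 for the nuclear members. The 95% interval lay within 1.25-fold for 26 of the 48, against 63.7% of all tested genes. In 11 of the 48 the groups did not overlap (10 higher and 1 lower), against 24.3% of all tested genes. DESeq2 and limma-voom also called 0, and limma on log2 FPKM called 1 higher (Pet100). Of 34 tested genes for the copying and transcription of mitochondrial DNA edgeR called 0 (4, or 11.8%, at an unadjusted p under 0.05), as did DESeq2, limma-voom and limma on log2 FPKM, and the median was 0.02. With the length offset 1 of them, Lrpprc, was called higher. Among them Tfam, which packages and transcribes mitochondrial DNA, was at 23.0 CPM with Prune2 siRNA and 23.8 CPM with control siRNA (log2 fold change -0.05), and Polrmt, the mitochondrial RNA polymerase, was at 35.8 CPM with Prune2 siRNA and 34.9 CPM with control siRNA (log2 fold change 0.04).

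Of 22 tested regulators of mitochondrial biogenesis 2 rose and 1 fell, also by DESeq2 and limma-voom, while limma on log2 FPKM called only Nfe2l2. That is 13.6% of the list, near the 10.3% called over all tested genes. With the length offset Hif1a, the hypoxia factor, was also called higher (log2 fold change 0.11, adjusted p = 0.0313 by edgeR, against 0.179 without the offset). Nfe2l2, the NRF2 factor of the oxidative stress response, was at 162, 173 and 164 CPM with Prune2 siRNA and 143, 146 and 147 CPM with control siRNA, at a log2 fold change of 0.19 (SE 0.04, adjusted p = 0.000779 by edgeR). Myc, a growth-promoting factor, was at 153, 150 and 158 CPM with Prune2 siRNA, against 147, 134 and 130 CPM with control siRNA, at 0.17 (SE 0.04, adjusted p = 0.0115 by edgeR). Nrip1, a corepressor that acts against many oxidative genes, was at 244, 249 and 239 CPM with Prune2 siRNA, against 273, 260 and 276 CPM with control siRNA, at -0.15 (SE 0.04, adjusted p = 0.00782 by edgeR). The groups of all 3 genes did not overlap. Nrf1 and Gabpa had log2 fold changes of 0.0047 and -0.00035, and the coactivator Ppargc1a was low, at 2.06 CPM with Prune2 siRNA and 1.74 CPM with control siRNA (log2 fold change 0.24, SE 0.24).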

How the data were processed

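Read counts and FPKM values (scaled to transcript length and library size) of 22274 genes in 6 libraries were used as deposited by the authors, with the authors' own log2 fold changes and p-values, all named per the file headers. The submitters' processing notes list GRCm38 and mm10. How reads were aligned and counted, whether by strand, and how reads shared between genes were treated is not given in the sources used here. Names and positions came from GENCODE M21, in which 22219 of the identifiers were found.

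The test on deposited counts was edgeR's (version 4.0.16, R 4.3.3; TMM, filterByExpr, glmQLFit, glmQLFTest, adjusted by Benjamini-Hochberg over 13248 genes), with calls at 0.05. Standard error is the log2 fold change divided by the square root of F, and CPM uses TMM-scaled library sizes. Totals of 20075265 to 23234797 counts set the precision, and intervals are given with each value. The length of a gene is that implied by its deposited count and FPKM. Alternatives were other scalings, no filter, DESeq2 1.42.0, limma 3.58.1, a replicate block, leaving out each library and an offset for length. On simulated counts over 13232 genes, 60% of genes changed 1.2-fold and 88% of those changed 1.5-fold were recovered, with 7 of 176 calls false. The simulation gave every gene the same spread beyond counting error and left genes of very low count unchanged. These rates may therefore not hold for the real libraries.

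Members and lists were chosen with earlier results of these data known. Every member may be named, and values by library are given for called members, all mitochondrial members, the highest and lowest nuclear member of each complex and the tissue isoforms. In the other mitochondrial lists every gene called by the test is named. Replicate pairs differed by 2.57 to 3.92 in chi-square per degree of freedom, above sampling noise. Of the listed names Coa1 and Fastkd4 were not matched. Rows that fit the naming rule only by GENCODE symbol (3 of them) were left out, and 1 tested member is counted in the totals and not reported here by itself.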

Additional observations from a re-analysis of the deposited data

How the results depend on the processing

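For nuclear members edgeR called 2 higher with no filter on low counts (Cox6b1 and Ndufa3), against 0 with the filter. When single libraries were left out it called 0 to 2 nuclear members higher (Cox6b1 without Prune2 siRNA replicate 2, Ndufa3 without control siRNA replicate 1, Atp5me and Cox6b1 without control siRNA replicate 3) and 0 to 1 lower (Cycs without control siRNA replicate 3). Of the mitochondrial members, 2 were called higher. The count was 1 (mt-Atp8) with RLE scaling, upper-quartile scaling, limma-voom and the length offset, and 0 with DESeq2 and with limma on log2(FPKM + 1) and log2(FPKM + 0.1). It was 1 to 2 when single libraries were left out. The length offset, chosen after seeing the data, called 1 mitochondrial member lower (mt-Nd3). The median log2 fold change of the mitochondrial members was -0.030 (without control siRNA replicate 3) to 0.048 (without control siRNA replicate 1) when single libraries were left out, against -0.01 with all. That of the nuclear members was 0.011 (without Prune2 siRNA replicate 1) to 0.055 (without Prune2 siRNA replicate 2), against 0.03 with all. With the length offset the nuclear median was 0.0073. Prune2 was at -0.24 (adjusted p = 0.191) with limma on log2(FPKM + 1) and at -0.43 (adjusted p = 0.197) on log2(FPKM + 0.1). Adding 1 or 0.1 to values of 0.847 FPKM with Prune2 siRNA and 1.18 FPKM with control siRNA makes the fold change smaller by itself. The rest of the difference from the count fit was not tested, nor was the cause of the other changes. Under the 16 alternatives, 457 of 480 values of the 30 members followed kept their side of the threshold (values without a call could change sign), 13 lost a call and 10 gained one.

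Same-numbered libraries did not deviate together (correlations of 0.031, -0.037 and -0.017). Differently numbered libraries gave -0.044 to 0.061. With 3 libraries per group, such values cannot show whether a number marks a shared isolation or batch. With the replicate block edgeR called 2 nuclear members higher (Cox6b1 and Ndufa3), and the block changed no other count of called members.

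Nuclear members of a few CPM, such as Ndufa1, Cox7a2 and Atp5me, had 95% intervals that reached beyond 1.25-fold, so differences of that size in them are not excluded. For a tissue isoform, 0 counts limit its level and do not show absence.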

Other observations

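Other mitochondrial pathways were measured in the same libraries. Of 76 tested genes for the mitochondrial ribosome, which translates the 13 mitochondrially encoded subunits, 1 rose (1.32%, against 4.46% of all tested genes): Mrpl24, a protein of the large subunit, was at 53.0, 49.6 and 53.9 CPM with Prune2 siRNA and 46.4, 46.0 and 44.1 CPM with control siRNA. Its groups did not overlap, and the log2 fold change was 0.20 (SE 0.05, adjusted p = 0.0131 by edgeR). DESeq2 and limma-voom also called it, and limma on log2 FPKM did not. The median of the 76 genes was 0.03, the same to 2 decimals as that of the nuclear respiratory chain members, and 53 were positive (69.7%, against 51.7% of all tested genes).

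Of 20 tested genes of the citric acid cycle and of pyruvate entry 1 rose, a share near the 4.46% of all tested genes. Idh2, the mitochondrial NADP-dependent isocitrate dehydrogenase, was at 58.7, 57.1 and 63.8 CPM with Prune2 siRNA and 54.8, 51.4 and 54.2 CPM with control siRNA, without overlap, at a log2 fold change of 0.16 (SE 0.05, adjusted p = 0.0467 by edgeR). DESeq2, limma-voom and limma on log2 FPKM did not call it. The median of the 20 genes was 0.03.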
